A study of Oryza sativa with 10 samples.

Results

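The leaf set consists of the array features (probe sets, each a group of short probes for 1 transcript) that were bright in rice leaf and dim in the root and in both seed parts. A probe set entered it when its deposited signal was at least 1000 on both leaf arrays and under 200 on both root, both endosperm and both embryo arrays, with the seedling arrays left free. Of 57258 probe sets that were not array controls, 9421 met the leaf minimum and 118 of these (1.25%) also stayed under the ceiling on all 6 other arrays. The set holds 94 probe sets assigned to 1 gene (92 distinct genes), 2 assigned to several genes and 22 with no gene in the platform annotation, and 8 members have a gene symbol. The members were thus chosen by their measured leaf, root, endosperm and embryo signals, so these are described below without a test.

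The arrays were 10 Affymetrix GeneChip Rice Genome arrays, 2 per tissue, hybridized with RNA of unmodified Oryza sativa plants of the japonica cultivar Zhonghua 11 grown in a phytotron. The groups were whole seedlings 10 days old, leaves and roots of seedlings 7 days old, and endosperm and embryo taken 6 days after anthesis. The submitters describe the 2 arrays of a tissue as biological repeats, and seedling and leaf differ in age as well as in the organs they hold. The number of arrays limits the precision of every value.

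A young rice leaf turns from importing sugar to exporting it: its mesophyll cells build chloroplasts, fix carbon, recover ammonium released by photorespiration and make cuticle and defence proteins. Root, endosperm and embryo carry other kinds of plastid and serve uptake, storage and growth, and transcripts of photosynthesis can be found in them at low levels. A whole seedling holds leaf, sheath, stem base and root together. In bulk tissue, fewer cells of a type and less RNA per cell cannot be told apart.

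The leaf markers summed to 74500 and 89965 on the seedling arrays and to 101131 and 92791 on the leaf arrays, against 27388 and 8506 on the root arrays. They summed to 8236 and 30906 on the endosperm arrays and to 4082 and 3312 on the embryo arrays. The marker sums of the other labels were highest in their own tissue: root markers summed to 48728 and 48843 on the root arrays, endosperm markers to 280480 and 204984 on the endosperm arrays, and embryo markers to 35170 and 34124 on the embryo arrays. The HAP3 symbol of the embryo list matched 3 genes, and 2 of these, LOC9268669 and LOC9268285, were brighter in endosperm than in embryo. Root 1 and endosperm 2 carried more leaf marker signal than their partners, which is taken up where it touches a count. Much of this came from CAB2R, at 15512 and 3976 on the root arrays and 3028 and 24306 on the endosperm arrays. Its endosperm 2 signal was above its leaf signals of 21118 and 18283. Of the 8 leaf marker genes, 5 were higher on root 1 than root 2, and 7 on endosperm 2 than endosperm 1. All arrays had the same trimmed mean of 500, and the median of all probe sets that were not controls lay between 44.2 and 86.8 on the 10 arrays. The ratio of 3' to 5' signal of the Gapdh control was 11.3 and 9.45 on the seedling arrays and 26.3 and 29.1 on the leaf arrays. It was 2.04 and 24.0 on the root arrays, 4.71 and 5.28 on the endosperm arrays, and 1.82 and 1.65 on the embryo arrays, and its part in any result below was not tested.

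**Figure D1:**
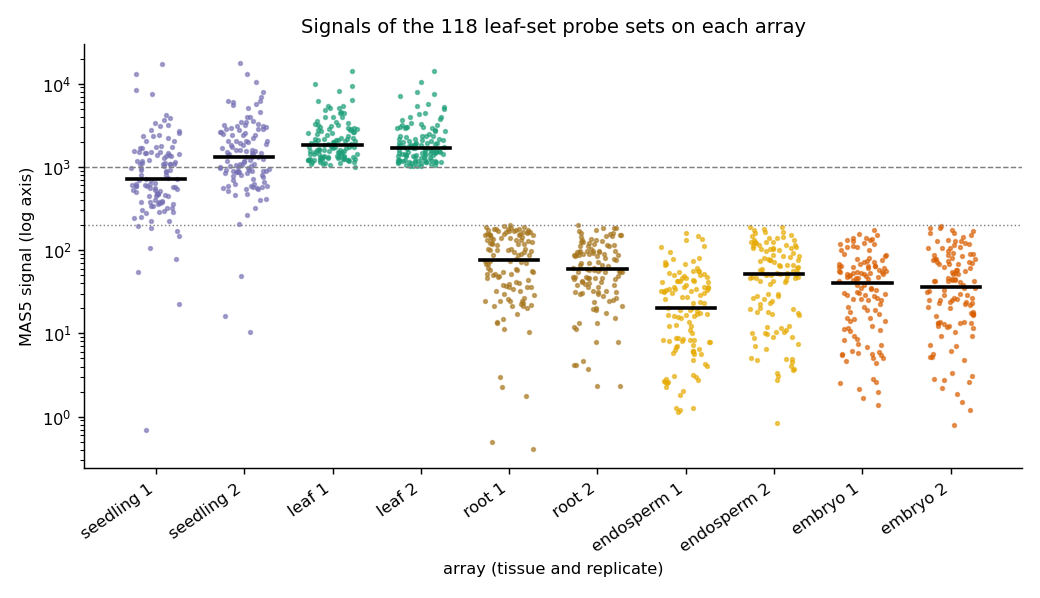
MAS5 signal (log axis) of the 118 probe sets of the leaf set on each of the 10 arrays. Each point is a probe set, black bars are medians, and the dashed and dotted lines mark the leaf minimum of 1000 and the ceiling of 200 that chose the members. The seedling arrays, which the choice did not use, have medians of 716 and 1318.

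The members' median signal was 716 on seedling 1 and 1318 on seedling 2, and 1808 and 1681 on the leaf arrays. It was 76.0 and 59.0 on the root arrays, 20.1 and 52.0 on the endosperm arrays, and 40.3 and 36.3 on the embryo arrays. The median of all probe sets was 55.3 and 57.1 on the root arrays, below the members, and it was above the members on all 4 seed arrays. No detection calls were used here, so a signal under 200 means dim and does not show that a transcript was absent. Mean leaf signal over the members had a median of 1755 and ran between 1064 and 14073. It was at least 5000 in 8 members, between 2000 and 5000 in 41, and under 2000 in 69. The 2 leaf arrays lay within 1.5-fold of each other in 105 members and at least 2-fold apart in 1, BURP16.

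How dim the members were outside the leaf varied widely. In 45 members all 6 root and seed signals were under 100, and in 14 they were all under 50. The lower leaf array exceeded the highest of the 6 others by a median of 15.1-fold, with extremes of 5.29-fold and 291-fold. The 291-fold value rests on a highest root signal of 32.0, under the median of all probe sets on that array, and is no precise fold. That ratio was at least 50 in 12 members and under 10 in 31. The highest of the 6 was a root array in 76 members, an endosperm array in 24 and an embryo array in 18. Endosperm 2, the endosperm array with more leaf marker signal, was above endosperm 1 in 87 of the 118, and root 1 was above root 2 in 68.

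Probe sets lay close to both limits of the rule on either side. Of the members, 41 had a highest root or seed signal of 150 or more, and 43 probe sets that met the leaf minimum were left out although all 6 of those signals were under 250. At the leaf limit, 10 members had a leaf array under 1100, and 15 probe sets met the ceilings but had both leaf arrays at 900 or more without reaching 1000 on both.

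Most probe sets that were bright in leaf were over the ceiling elsewhere. Of the 9421 probe sets that met the leaf minimum, 8037 reached the ceiling in root, endosperm and embryo alike. Another 395 reached it in root alone, 459 in root and embryo, and 300 in root and endosperm. By contrast 50 reached it in embryo alone, 18 in endosperm alone and 44 in both seed parts without root. Root 1 was the single array that kept 58 probe sets out of the set, against 16 for root 2. On those 58, root 1 had a median signal of 314 (202 to 1198) and root 2 of 103. Leaving root 1 out of the rule gave 176 probe sets, all 118 members among them.

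Each replicate number was also used alone to choose a set that could be read on the other arrays. On the replicate 1 arrays 182 probe sets met the rule. On the replicate 2 arrays, 153 of these (84.1%) met the leaf minimum, and 158 stayed under the ceiling in root, 168 in endosperm and 172 in embryo. Leaf 2 was above root 2, endosperm 2 and embryo 2 in all 182, against 34.6% of the 9889 probe sets with leaf 1 at 1000 or more. The choice on the replicate 2 arrays gave 204 probe sets, and leaf 1 was the highest of its 4 arrays in 202 of them, against 38.0% of the 9886 with leaf 2 at 1000 or more. Of these 204, 182 (89.2%) met the leaf minimum on leaf 1, 203 stayed under the ceiling on endosperm 1 and 199 on embryo 1, but only 135 on root 1. In each direction leaf was thus the highest tissue in nearly all probe sets on the arrays not used to choose them. Together these arrays chose the leaf set, so the split is a description and not an independent result. The probe sets that met every limit in both directions are the 118 members by definition, so their equal count shows no agreement between replicates. They were 64.8% and 57.8% of those chosen.

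The seedling arrays, which the rule did not use, carried most members at an intermediate signal. Seedling signal was a median of 55.3% of leaf signal (quartiles 36.2% and 88.0%), against 93.9% for the other 9303 probe sets that met the leaf minimum. In the fit across all probe sets the members' median log2 difference, seedling minus leaf, was -0.94, beside -0.09 for those others and 0.02 for all 30016 tested. All 118 members were tested, since the leaf minimum alone carried them past the filter on low signals. Both seedling arrays were above the highest root or seed signal in 114 members. Both were at least 200 in 109 members and at least 1000 in 46.

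Both seedling arrays lay below both leaf arrays in 78 members, where 30% of all tested probe sets did so. Both lay above them in 13 members, against 32.7% of all tested, and the arrays overlapped in 27. With limma and Benjamini-Hochberg adjustment over all tested probe sets, calling differences at an adjusted p under 0.05 and at least 2-fold, 12 members (10.2%) were lower in seedling, beside 0.736% of all tested and 1.2% of the others with the leaf minimum. The same test called 2 members (1.69%) higher, beside 1.97% and 0.785%, and 104 members were not called. The leaf side of this comparison also served to choose the members, which were taken for high leaf signals. The excess of lower calls is thus a description and not an independent result. The calls depended on single arrays. Leaving out a single array moved the share called over all tested probe sets as well as the members' calls. Such a fit leaves 1 array in a tissue, so its counts of called members are not given here.

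**Figure D2:**
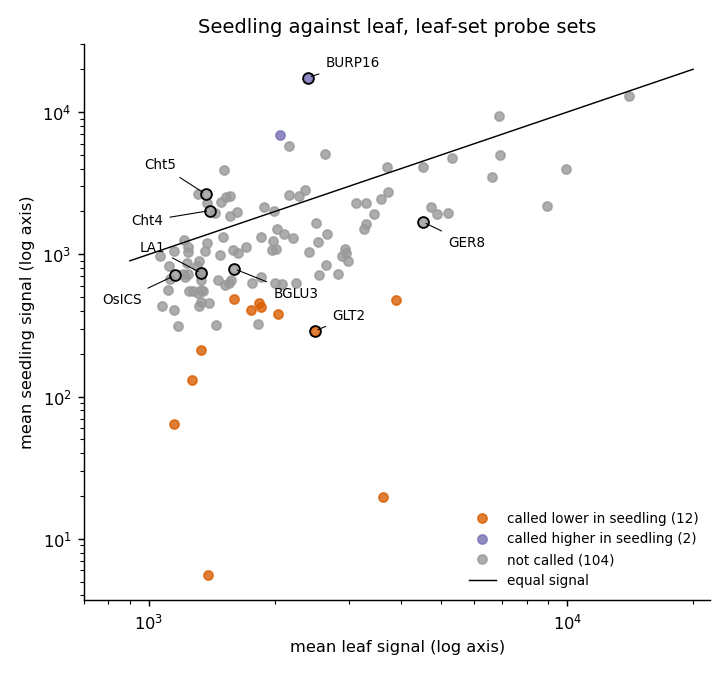
Mean seedling signal against mean leaf signal (both log axes) of the 118 probe sets of the leaf set, each point the mean of 2 arrays per tissue. Orange points were called lower in seedling (12), purple points higher (2) and grey points neither (104). Members with a gene symbol are ringed and named, and 95 points lie below the line of equal signal.

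The seedling arrays differed from each other over the set as a whole. Seedling 2 was above seedling 1 in 108 of the 118 members (91.5%), against 47.6% of the other probe sets that met the leaf minimum. The median ratio of seedling 2 to seedling 1 was 1.83 (quartiles 1.43 and 2.30), against 0.988 for the others. It was at least 2-fold in 49 members (41.5%), against 2.16% of the others, and no member was 2-fold higher on seedling 1. Seedling 1 stood at a median of 37.2% of leaf signal and seedling 2 at 70.4%. The median log2 difference from leaf was -0.50 without seedling 1 and -1.38 without seedling 2, so the size of the seedling value depends on which seedling array is used.

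Organ markers also differed between the seedling arrays. All 8 leaf marker genes were higher on seedling 2, though RBCS1 was dim on all 10 arrays. The ratio of seedling 2 to seedling 1 was 1.01 for CAB2R, 1.07 for OsrbcS and 1.17 for OsrcaA1. It was 1.67 for PPO, 1.78 for CHL1, 1.99 for GLN2 and 2.62 for LFNR1. All 5 root marker genes were higher on seedling 1, with root marker sums of 13575 on seedling 1 and 6388 on seedling 2. The root sums were 11490 and 10110 on the leaf arrays, nearly all of it from NAS1, a nicotianamine synthase that was bright in leaf too. Lsi2, a silicon efflux transporter of root cells, had 793 on seedling 1 and 239 on seedling 2, against 1.69 and 6.43 on the leaf arrays. Of the 58 probe sets kept out by root 1 alone, 52 stood higher on seedling 2, as most members did. The part of organ proportions in the seedling values of the leaf set was not tested.

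**Figure D3:**
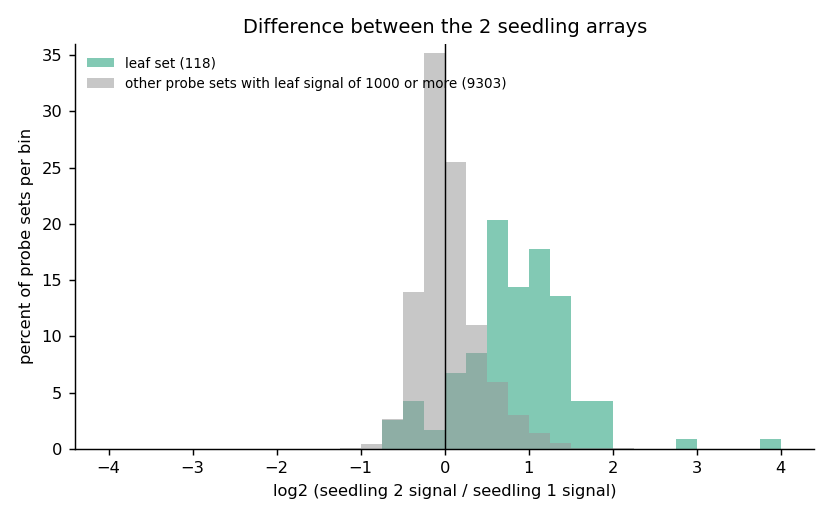
Distribution of the log2 ratio of seedling 2 to seedling 1 signal for the 118 probe sets of the leaf set (green) and the 9303 other probe sets with leaf signal of 1000 or more on both leaf arrays (grey), as the percent of each group per bin. The leaf set is shifted to the right, with 108 members above 0, while the others centre near 0.

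The photosynthesis genes that could be looked up by symbol were not in the set. The lists used here take 1 probe set per gene, the brightest, and since only 8 members have a symbol, they cannot show whether members without one belong to the same pathways. None of the 6 listed photosystem and light-harvesting genes, 10 Calvin cycle and photorespiration genes and 10 chlorophyll synthesis genes was a member. All 6 photosystem genes met the leaf minimum, and all 6 were over the ceiling on both root arrays. Of the Calvin cycle genes 9 met the leaf minimum, and all 9 were over the ceiling on root 1. Of the chlorophyll genes 8 met it, and all 8 were over the ceiling on root 1. OsrbcS, the small subunit of the carbon-fixing enzyme Rubisco, had 22229 and 23786 on the seedling arrays and 23578 and 23829 on the leaf arrays, against 7774 and 1501 on the root arrays, 292 and 2315 on the endosperm arrays, and 545 and 397 on the embryo arrays. OsrbcS was brighter in leaf than in root or seed without overlap, but its root and seed signals were all above 200.

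These chloroplast lists shared the tilt of the seedling arrays to differing degrees. Seedling 2 was above seedling 1 for 6 of 6 photosystem genes, 10 of 10 chlorophyll genes and 8 of 10 Calvin cycle genes. The 8 include RBCS1, which was dim. It was so for 2 of 6 circadian clock genes and 47.6% of the other probe sets that met the leaf minimum. Among listed genes at the leaf minimum, the median ratio was 1.60 for photosystem, 1.66 for chlorophyll and 1.17 for Calvin cycle genes. Between leaf and root the fit called 10.9% of all tested probe sets higher in leaf and 8.87% lower. It called 3 of 6 photosystem genes, 6 of 9 tested Calvin cycle genes and 9 of 10 chlorophyll genes higher in leaf, with median log2 differences of 2.90, 2.79 and 2.38, and none lower. No gene of the 3 lists was called between seedling and leaf in either direction. By fit and arrays used, the counts called higher in leaf than root ran from 2 to 5, from 4 to 6 and from 3 to 10 in that order of lists.

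Of the remaining lists, all looked up by symbol, only the germin-like one held a member. The lists of TCP factors (7 genes), GLK and light signalling (7), circadian clock (6), cuticular wax (1), terpene synthesis (15) and leaf polarity and growth factors (36) held no member. GLK2, a transcription factor of chloroplast development, had 3177 and 5158 on the seedling arrays and 4398 and 3728 on the leaf arrays, against 54.8 and 99.0 on the root arrays. It stayed under 200 in the endosperm at 64.6 and 119, and was left out through the embryo, at 617 and 640. PCF7, a TCP-domain factor, had 1761 and 1668 on the seedling arrays, 3536 and 3755 on the leaf arrays and 54.9 and 51.9 on the root arrays, and was likewise left out through the embryo, at 3148 and 1935. Both genes stayed under the ceiling in root and endosperm and were over it in embryo alone.

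Of the 8 members with a symbol, 7 encode enzymes or wall proteins. GER8 encodes a germin-like protein, a family of cell-wall proteins linked to disease resistance in rice. Its member probe set, of the s type, had 1371 and 2010 on the seedling arrays and 4605 and 4423 on the leaf arrays, against 13.2 and 54.4 on the root arrays, 42.4 and 7.43 on the endosperm arrays and 5.88 and 31.2 on the embryo arrays. Outside the set GER8 has 2 x-type probe sets, and the brighter had 772 and 1042 on the leaf arrays and 121 and 533 on the endosperm arrays. The dimmer had 91.5 and 190 on the leaf arrays and 65.0 and 618 on the endosperm arrays. Both were thus under 200 on endosperm 1 and over 200 on endosperm 2. Signal under 200 on both endosperm arrays held for the member probe set alone. In the member probe set both seedling arrays were below both leaf arrays, and the log2 difference of -1.43 ± 0.59 (SE) was not called (adjusted p = 0.291). Of the 9 germin-like genes, 6 were called lower in leaf than root and 2 higher, GER8 and GER5. GER8 was chosen by its leaf and root signals, so its call is a description and no independent result. Of the same 9 genes, 1 was called higher in seedling than leaf. GER5 had 14455 and 15152 on the leaf arrays, and missed the set only through embryo 2, at 235.

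GLT2 encodes a glutamate synthase, which passes reduced nitrogen from glutamine to 2-oxoglutarate. Its signal was 170 and 406 on the seedling arrays, 3100 and 1875 on the leaf arrays, 21.3 and 38.1 on the root arrays, and at most 23.7 in the seed. Seedling did not overlap leaf, and GLT2 fell by 3.12 ± 0.55 on the log2 scale (SE; adjusted p = 0.0152), a call lost without leaf 1 (adjusted p = 0.188), leaf 2 (adjusted p = 0.0825) or seedling 1 (adjusted p = 0.215). In seedling it stood at 11.6% of leaf signal.

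BURP16, a member of the plant BURP-domain family of wall-associated and secreted proteins, ran the other way. It had 17432 and 17550 on the seedling arrays, against 3329 and 1469 on the leaf arrays, 141 and 146 on the root arrays, and at most 25.3 in the seed. Both seedling arrays were above both leaf arrays, at 729% of leaf signal. BURP16 rose by 2.97 ± 0.49 on the log2 scale (SE; adjusted p = 0.0111), a call lost without leaf 2 (adjusted p = 0.142), seedling 1 (adjusted p = 0.150) or seedling 2 (adjusted p = 0.0939). Its leaf arrays were the only ones at least 2-fold apart in the set. Of the 7 genes with a BURP symbol, BURP16 was the only member, and BURP17 was left out through root signals of 10422 and 5421.

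The chitinases Cht4 and Cht5, enzymes that cut the chitin of fungal walls, are adjacent on chromosome 4. Cht4 had 2029 and 2032 on the seedling arrays, 1249 and 1553 on the leaf arrays, 22.4 and 87.6 on the root arrays, and at most 43.8 in the seed. Cht5 had 2681 and 2615 on the seedling arrays, 1202 and 1530 on the leaf arrays, 26.2 and 41.0 on the root arrays, and at most 13.5 in the seed. Seedling was above leaf without overlap for both genes, by a log2 difference of 0.54 ± 0.51 for Cht4 (SE; adjusted p = 0.723) and 0.96 ± 0.41 for Cht5 (SE; adjusted p = 0.329), and neither was called. They were 2 of 10 chitinase genes, a family looked up after the members had been seen. Of the 9 tested, 3 were called higher in leaf than root, Cht4, Cht5 and Cht11, and 3 lower. Cht4 and Cht5 were chosen by their leaf and root signals, so their calls are a description and no independent result.

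BGLU3 encodes a beta-glucosidase, an enzyme that removes glucose from cell-wall fragments or from stored conjugates. It had 545 and 1040 on the seedling arrays, 1752 and 1439 on the leaf arrays, 153 and 66.8 on the root arrays, and at most 84.3 in the seed. Seedling was below leaf without overlap, but the log2 difference of -1.06 ± 0.46 (SE) was not called (adjusted p = 0.324). It was the only member among 27 beta-glucosidase genes, of which 9 met the leaf minimum and 8 were over the ceiling on root 1. Outside the set, BGLU3 has an x-type probe set at 480 and 391 on the leaf arrays and another at 81.5 and 81.9. In both, the leaf signals were above all root and seed signals but under the leaf minimum.

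LA1 is LAZY1, which acts in shoot gravitropism and sets tiller angle in rice. It had 890 and 582 on the seedling arrays, 1197 and 1473 on the leaf arrays, 141 and 57.7 on the root arrays, and at most 18.0 in the seed. It was among the 10 members that were higher on seedling 1 than on seedling 2. Seedling was below leaf without overlap, and the log2 difference of -0.87 ± 0.45 (SE) was not called (adjusted p = 0.434).

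OsICS is an isochorismate synthase, whose product feeds phylloquinone, the quinone cofactor of photosystem I, and salicylate. It had 629 and 791 on the seedling arrays, 1129 and 1175 on the leaf arrays, at most 124 on the root arrays, and at most 47.1 in the seed. Its seedling arrays were below its leaf arrays, with a log2 difference of -0.69 ± 0.48 (SE) that was not called (adjusted p = 0.595).

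**Figure D4:**
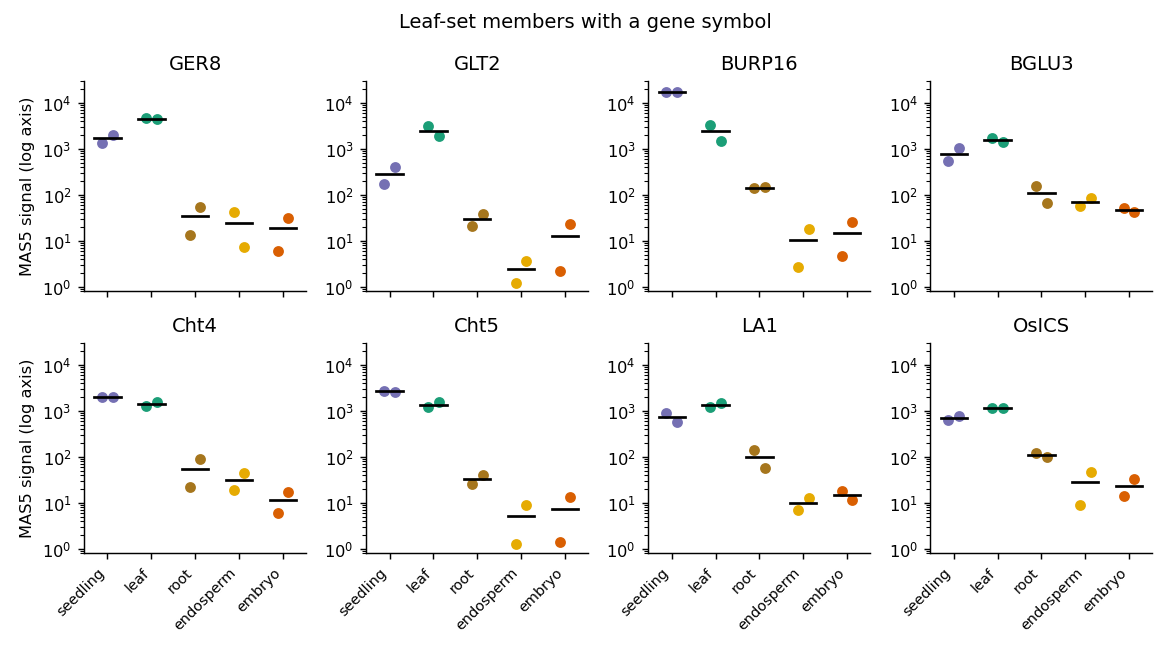
MAS5 signal (log axis) of the 8 members of the leaf set with a gene symbol, in seedling, leaf, root, endosperm and embryo. Points are the 2 arrays of a tissue and bars their mean; BURP16, Cht4 and Cht5 are higher in seedling than in leaf, and the other 5 lower.

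The brightest members in leaf have no symbol. LOC4333623 had 2347 and 5614 on the seedling arrays and 9333 and 10549 on the leaf arrays, with at most 32.0 on the other 6. These values hold for its member probe set alone. Another probe set of LOC4333623, outside the set, had 44.8 and 25.4 on the leaf arrays and 34.1 on endosperm 1. LOC4340874 had 1357 and 3032 on the seedling arrays and 9884 and 7981 on the leaf arrays, with at most 99.2 on the other 6. In both, seedling was below leaf without overlap and neither was called, with log2 differences of -1.45 ± 0.53 (SE; adjusted p = 0.227) and -2.12 ± 0.54 (SE; adjusted p = 0.0751). LOC4340874 was called lower with quantile scaling (adjusted p = 0.0285), median scaling (adjusted p = 0.0310) and several other settings. The brightest probe set of all, Os.8385.1.S1_s_at, matches 3 genes, LOC4348121, LOC4348122 and LOC4348123, and had 12991 and 13132 on the seedling arrays against 14035 and 14111 on the leaf arrays.

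Among members known by gene ID, LOC4348206 and LOC9269151 stood highest in seedling relative to leaf. LOC4348206 had 3618 and 7849 on the seedling arrays, against 2011 and 2317 on the leaf arrays, a log2 difference of 1.30 ± 0.54 (SE; adjusted p = 0.306). LOC9269151 had 4216 and 5976 on the seedling arrays, against 2571 and 2691 on the leaf arrays, a log2 difference of 0.93 ± 0.38 (SE; adjusted p = 0.297). Neither was called, although seedling exceeded leaf without overlap in both. The deepest falls among them were in LOC4335826 and LOC4335374. LOC4335826 had 54.1 and 205 on the seedling arrays, against 1213 and 1326 on the leaf arrays, and fell by 3.37 ± 0.75 on the log2 scale (SE; adjusted p = 0.0453), a call that was lost without any one of the leaf, seedling or root arrays or embryo 1. LOC4335374 had 335 and 617 on the seedling arrays, against 4764 and 3012 on the leaf arrays, and fell by 3.01 ± 0.48 (SE; adjusted p = 0.00941), a call lost without leaf 1, leaf 2 or seedling 1.

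The probe sets with almost no seedling signal had no gene in the annotation, and were singled out after their values had been seen. Os.20314.1.S1_at had 22.7 and 16.3 on the seedling arrays, against 4025 and 3236 on the leaf arrays. It fell by 6.68 ± 0.50 on the log2 scale (SE; adjusted p = 0.000472), and the difference was -7.48 with a pseudocount of 1 and -5.46 with one of 64. Os.48053.1.A1_at had 0.692 and 10.5 on the seedling arrays, against 1753 and 1012 on the leaf arrays. It fell by 6.00 ± 0.53 (SE; adjusted p = 0.000649), and the difference was -8.24 with a pseudocount of 1 and -4.33 with one of 64. Both seedling signals were under its highest root or seed signal of 26.7, and the size of the fall moved with the pseudocount. Neither call was lost under any alternative run. Also dim in seedling, OsAffx.26649.1.S1_x_at, had 78.8 and 48.9 on the seedling arrays, against 1285 and 1016 on the leaf arrays, and fell by 3.88 ± 0.88 (SE; adjusted p = 0.0474). These 3 were the only members under 200 on both seedling arrays. The seedling plants were 10 days old and the plants that gave leaves 7, so age and organ cannot be told apart here.

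The other calls, also named after their values had been seen, were LOC4332981, LOC4332782, LOC4324367, LOC4332797, LOC9269584 and LOC4343986, lower in seedling, and Os.20572.2.S1_at, higher. In the 12 lower calls the log2 difference lay between -6.68 and -1.72, with a median of -2.86. Os.20572.2.S1_at had 7521 and 6181 on the seedling arrays, against 1749 and 2368 on the leaf arrays, and rose by 1.74 ± 0.38 (SE; adjusted p = 0.0430). Of the 12 lower calls 10 were brighter on seedling 2 than on seedling 1. Of the 14 calls in either direction, 12 were lost when at least 1 array was left out.

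The gene order of assembly ASM3414082v1, used only to see which genes are neighbours, placed 91 of the member genes on all 12 chromosomes, from 1 gene on chromosome 9 to 15 on chromosome 1. Of the 91, 12 (13.2%) lay within 5 genes of another member. No such share for other genes is given here, so the value does not show whether members cluster. A run of 4 lies on chromosome 5: LOC4338021, LOC9269151, LOC4338023 and LOC4338024, with 2 genes between the first and the second for which no probe set was found, and none between the rest. The pairs were Cht4 and Cht5 on chromosome 4, LOC4343986 and LOC4343987 on chromosome 7, LOC4329121 and LOC9271858 on chromosome 2, and LOC4350472 and LOC4350473 on chromosome 11. The last pair has 1 gene between, also without a probe set found, and the other pairs are adjacent.

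Neighbours were not alike in seedling in every case. In the chromosome 5 run, LOC4338023 had 8363 and 10405 on the seedling arrays and 6273 and 7490 on the leaf arrays. The member probe set of its neighbour LOC4338024 had 197 and 714 on the seedling arrays, against 1419 and 1364 on the leaf arrays. LOC4338023 was above leaf in seedling and this probe set of LOC4338024 below, neither overlapping and neither called. Another probe set of LOC4338024, outside the set, was dim, with 36.8 and 68.3 on the seedling arrays and 48.8 and 56.3 on the leaf arrays. Its seedling and leaf signals overlapped. On chromosome 7 both genes had both seedling arrays below both leaf arrays, and LOC4343986 alone was called. LOC4343986 had 107 and 319 on the seedling arrays, against 1523 and 1138 on the leaf arrays (adjusted p = 0.0267). LOC4343987 had 182 and 463 on the seedling arrays, against 2130 and 1511 on the leaf arrays, and was not called (adjusted p = 0.0587). Adjacent genes can be copies of each other, and whether the probe sets of neighbours also bind each other's transcripts was not tested.

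**Figure D5:**
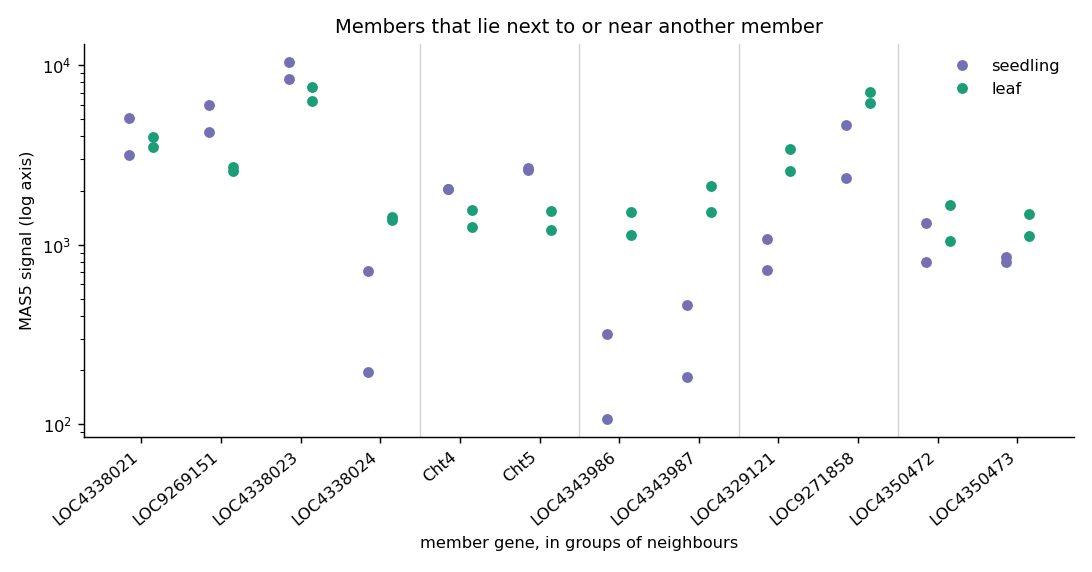
MAS5 signal (log axis) on the 2 seedling arrays (purple) and the 2 leaf arrays (green) of the 12 member genes that lie within 5 genes of another member; vertical lines separate the groups of neighbours. In the chromosome 5 run at the left, LOC9269151 and LOC4338023 are above leaf in seedling and LOC4338024 is below.

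Other probe sets of the same genes were put to the same rule and did not meet it, so they are described without a test. For 21 member genes there were 31 further probe sets outside the set. Of these, 15 were under 200 on both leaf arrays, although a probe set of the same gene was at 1000 or more. Both leaf arrays were above all 6 root and seed arrays in 21 of the 31, and the share over all probe sets is not given here. Of the 31, 7 met the leaf minimum, and being outside the set they missed a ceiling by definition. For LOC4352021 the member probe set had 8131 and 5673 on the leaf arrays and at most 127 on the other 6. The second probe set, Os.10959.1.S1_at, had 24135 and 22531 on the leaf arrays, against 7455 and 1089 on the root arrays and 3654 on endosperm 2. For LOC4332232 the member had 2354 and 2475 on the leaf arrays and at most 92.4 elsewhere, and Os.51228.3.S1_x_at had 2181 and 2362 in leaf, against 1115 and 1144 in root and 725 and 842 in embryo. In these genes, singled out after their values had been seen, dim signals in root and seed held for 1 probe set and not for the other, and 25 members are of the x or s types that can match several transcripts.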

How the data were processed

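RNA of 5 rice tissues was measured on 10 arrays, 2 per tissue. The values were signal intensities deposited by the authors on a linear scale, made with MAS5 per the submitters' processing notes (version not given in the sources used here), each array at a trimmed mean (2% to 98%) of 500. Detection calls and scanner files were not used here, so no probe set was called absent.

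The rule was applied to the deposited signals. For the tests, log2 was taken of the signals plus a pseudocount of 16, after each array had been brought to the same trimmed mean, and probe sets at 100 or more on at least 2 of 10 arrays were kept. One mean per tissue was fitted with limma 3.58.1 in R 4.3.3 with eBayes and an intensity trend (5 residual degrees of freedom), then Benjamini-Hochberg adjustment. Log2 differences understate changes of dim probe sets. The script was run on simulated data, but the outcome is not given here. The run therefore does not show which differences could be detected. Replicate numbers were not used to pair the tissues in the main fit. Correlations of deviations between tissues ran from -0.108 to 0.0962. These cannot show whether tissues with the same replicate number came from the same plants.

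Gene names came from the platform annotation, neighbours from assembly ASM3414082v1. Named members were all with 1 gene and a symbol, and by gene ID the 2 brightest in leaf and the 2 largest rises and falls. Symbols of other genes that a list's pattern caught were removed by gene ID. Members, lists and families were chosen with earlier results of these data known. A planned search of promoters was not run. Python 3.11.15 drew the figures.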

Additional observations from a re-analysis of the deposited data

How the results depend on the processing

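The number of probe sets in the leaf set followed its limits: 45 with a ceiling of 100, 312 with a ceiling of 400, 282 with a leaf minimum of 500 and 38 with one of 2000. It was 93 without x and s probe sets, 105 with quantile scaling, 157 with median scaling, 97 with scaling to the hybridization spike-ins, and 119 to 176 without 1 array. The 12 members lower in seedling became 3 at an adjusted p under 0.01, 52 with array weights, 4 without the filter, 44 with only leaf and seedling, 3 with a pseudocount of 1, 24 with one of 64 and 6 with spike-in scaling, and 2 to 19 without 1 array. The 2 higher became 0 at the stricter p, 5 with array weights, 1 with median scaling, 1 without the filter, 5 with only leaf and seedling, 0 with a pseudocount of 1, 1 with spike-in scaling, and 0 to 3 without 1 array. Over all tested probe sets the share called lower was 0.736% as reported, 4.65% with array weights and 4.21% with only leaf and seedling. It was 0.247% at the stricter p, 0.253% without the filter and 0.320% with spike-in scaling. With a pseudocount of 1 it was 0.410%, and with one of 64 it was 1.16%. The share called higher was 1.97% as reported, 7.32% with array weights and 6.47% with only leaf and seedling. The causes were not tested. With the replicate block 9 were lower and 1 higher, beside 0.610% and 1.78% of all tested. Chosen after seeing the data, a replicate block within leaf and seedling alone gave 54 lower and 5 higher. The crossed pairing also gave 54 and 5. Over all tested probe sets these fits called 4.61% and 4.82% lower and 6.71% and 7.11% higher. The median log2 difference stayed negative under every alternative run, from -1.38 to -0.50 without 1 array and from -1.20 to -0.91 otherwise. No called member reversed. With a pseudocount of 1 the calls of GLT2 (adjusted p = 0.170), BURP16 (adjusted p = 0.150) and LOC4335826 (adjusted p = 0.165) were lost. With 2 arrays per tissue, differences near the spread between arrays were not detectable.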
